A study of Mus musculus with 6 samples.

Results

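The 10 genes described are part of the amino acid response controlled by the transcription factor ATF4 and were followed through single melanoma cells: Atf4, Ddit3, Trib3, Chac1, Sesn2, Asns, Slc7a11, Phgdh, Psat1, and Shmt2. They were taken by symbol, in a choice made with earlier results of these data known, as 10 of the 25215 genes in the deposited table, and all 10 were among the 11264 genes tested, a set that needed a transcript in more than 5 of the cells kept. The table holds full-length single-cell RNA sequencing of CD45-negative cells, a sort that sets aside leukocytes, from 6 tumors grown under the skin of C57BL/6 mice and harvested on day 15. The study used these cells to follow tumor subclones under immune checkpoint blockade, and the comparisons described here ask how the response genes differed with anti-PD1 and between the parental and the resistant line.

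Each of the 3 conditions had 2 tumors, 1 from each of 2 mice. B16 tumors came from the untreated parental B16 melanoma line. B16PD1 tumors came from the same line in mice given 200 µg of anti-PD1 antibody on days 5, 8, and 11. R499 tumors, also untreated, came from the line R499, which was derived from a B16 tumor that relapsed after radiation with anti-CTLA4, so that R499 stands for 1 derived line with its own history of treatment. Mice carried tumor cells in both flanks, and the number of flanks behind each sample is not given in the sources used here. Tumors are named below by their condition and the number in the table: B16007, B16008, B16PD1000, B16PD1002, R499015, and R499016.

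Cells short of an amino acid, or with unfolded protein in the endoplasmic reticulum (ER), phosphorylate the initiation factor eIF2, which lowers translation in general but raises that of ATF4. ATF4 then binds with C/EBP-family partners to response elements in genes that make, import, and spare amino acids, and among its targets are Ddit3 (CHOP) and Trib3, which in turn can limit the response. In melanoma the program is known to respond to scarce nutrients in the tumor and to ER stress.

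Of 602 deposited cells, 507 were retained, each with more than 1000 detected genes (TPM over 0) and a mitochondrial share of TPM under 10%. There were 75 to 91 such cells per tumor. TPM, the relative abundance of a transcript, is corrected for transcript length, so that levels can be compared between genes, but it keeps no read depth, and depth in reads is unknown. The median number of genes detected was between 3141 and 3838.5 per tumor, lowest in R499015, and 75.0% to 90.1% of cells were retained, least in R499016. Melanocyte markers were detected in a median of at least 99.0% of cells in every condition. Of 12 immune markers, 5 or 6 were at 0 in each condition, the most frequent reached 7.47% of cells (Fcer1g in B16PD1), and the summed immune TPM ranged from 13.2 to 224 in B16, 22.4 to 233 in B16PD1, and 7.30 to 9.78 in R499. The summed TPM of fibroblast, endothelial, and keratinocyte markers was at most 3.30, 2.30, and 0.324. No cell name was shared between tumors.

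The regulatory sequence just upstream of several members carries the element that ATF4 is known to bind together with C/EBP factors, here searched as TGATGNAA on both strands (TTNCATCA on the other). A looser form, TGNNGCAA, was added after the windows had been read, and the 2 overlap where the match is TGATGCAA. Windows of 250 bases before to 50 after the RefSeq start site (GRCm38.p6) were found for all 10 members. The first motif was in the windows of 4 members, Asns, Chac1, Trib3, and Slc7a11. It was in 3.97% of all 32851 windows of the same length, and in a window of 1219 of all 27025 symbols. At least 1 of the motifs was in those 4 plus Psat1 and Sesn2, against 14.2% of windows and 4330 of the 27025 symbols. Atf4, Ddit3, Phgdh, and Shmt2 had neither in these windows, and sites outside the windows were not searched. Psat1 and Sesn2 matched only the looser form. Atf4 was lower in both R499 tumors below but held no match, and its window is not shown. The windows of 6 genes with a match are shown because these genes were lower in both R499 tumors below, and that of Ddit3 because it was the member that was higher. Each is the stretch before the start site, 5′ to 3′ on the strand of the gene, with matches to either motif in capitals, at chr6:7693210-7693459, minus strand (Asns), chr2:119350992-119351241, plus strand (Chac1), chr2:152344061-152344310, minus strand (Trib3), chr19:15925060-15925309, minus strand (the first of 2 windows of Psat1), chr3:50443614-50443863, minus strand (Slc7a11), chr4:132510457-132510706, minus strand (Sesn2), and chr10:127290543-127290792, plus strand (Ddit3).
Asns: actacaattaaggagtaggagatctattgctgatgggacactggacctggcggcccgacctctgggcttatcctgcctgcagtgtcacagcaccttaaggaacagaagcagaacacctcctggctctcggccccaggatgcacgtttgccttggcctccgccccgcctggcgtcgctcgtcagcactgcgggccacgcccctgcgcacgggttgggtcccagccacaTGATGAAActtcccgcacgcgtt
Chac1: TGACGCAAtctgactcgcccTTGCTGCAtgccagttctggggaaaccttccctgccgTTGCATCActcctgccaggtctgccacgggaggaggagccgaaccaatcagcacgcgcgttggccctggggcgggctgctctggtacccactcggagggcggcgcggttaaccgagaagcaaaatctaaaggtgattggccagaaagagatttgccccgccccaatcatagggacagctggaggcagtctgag
Trib3: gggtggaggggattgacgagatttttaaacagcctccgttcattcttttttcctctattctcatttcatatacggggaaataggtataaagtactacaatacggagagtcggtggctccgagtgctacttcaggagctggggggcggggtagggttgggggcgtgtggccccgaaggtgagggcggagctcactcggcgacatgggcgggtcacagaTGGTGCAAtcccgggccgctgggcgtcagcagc
Psat1: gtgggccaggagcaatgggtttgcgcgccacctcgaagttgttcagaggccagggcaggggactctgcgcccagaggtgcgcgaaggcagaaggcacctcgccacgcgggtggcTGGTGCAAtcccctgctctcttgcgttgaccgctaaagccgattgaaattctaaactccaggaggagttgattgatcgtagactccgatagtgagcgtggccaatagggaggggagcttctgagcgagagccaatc
Slc7a11: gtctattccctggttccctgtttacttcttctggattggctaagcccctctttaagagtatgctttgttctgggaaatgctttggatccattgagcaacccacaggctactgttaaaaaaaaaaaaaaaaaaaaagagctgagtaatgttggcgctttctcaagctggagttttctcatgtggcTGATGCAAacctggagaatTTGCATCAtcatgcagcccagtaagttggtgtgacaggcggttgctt
Sesn2: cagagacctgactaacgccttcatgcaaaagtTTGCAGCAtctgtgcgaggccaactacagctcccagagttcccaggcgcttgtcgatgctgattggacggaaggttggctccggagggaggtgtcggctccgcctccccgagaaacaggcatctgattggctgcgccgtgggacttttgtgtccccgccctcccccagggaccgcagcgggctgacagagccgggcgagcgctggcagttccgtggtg
Ddit3: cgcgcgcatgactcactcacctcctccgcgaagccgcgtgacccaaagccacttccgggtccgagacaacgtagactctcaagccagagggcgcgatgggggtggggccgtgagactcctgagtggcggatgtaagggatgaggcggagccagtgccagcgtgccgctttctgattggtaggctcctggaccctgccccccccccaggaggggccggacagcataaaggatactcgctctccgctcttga

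The match of Asns, TGATGAAA, began at -23 from the start site, and Slc7a11 held a pair that face each other, TGATGCAA at -66 and TTGCATCA at -47. Chac1 held TTGCATCA at -193 and 2 matches to the looser motif, at -250 and -230. Sesn2 held TTGCAGCA, a match to the looser motif, at -218. Trib3 and Psat1 shared the letters TGGTGCAA, at -33 and -136, and Trib3 also held TTACATCA, which begins 14 bases after its start site and so is not in the printed stretch. These are matches of letters, and binding was not measured.

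The members spanned a wide range in level and are given here in the order of their mean TPM over the 6 tumors. Atf4 had 593 ± 123 (SD, n = 6) and Asns, which makes asparagine, 476 ± 116. Ddit3 had 287 ± 39.0, Phgdh, the first enzyme of serine synthesis from glycolysis, 232 ± 51.5, and Psat1, the second, 172 ± 45.8. Shmt2, which moves the one-carbon unit of serine in mitochondria, had 97.4 ± 25.4. Below these came Chac1, which breaks down glutathione, at 38.9 ± 9.96 and Trib3, a pseudokinase, at 32.1 ± 22.7. Sesn2, a sensor of leucine upstream of mTORC1, had 7.97 ± 2.26, and Slc7a11, the cystine importer, 4.53 ± 2.77. The tumors of neighbors in this order overlapped except at 2 steps: every Asns value (338 to 627) was above every Ddit3 value (235 to 334), and every Shmt2 value (67.7 to 137) above every Chac1 value (28.8 to 53.7).

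The share of cells with a transcript fell in the order of the mean TPM, with Ddit3 as the exception. Atf4 was detected in 96.6% of the 507 cells, Asns in 94.1%, Phgdh in 91.1%, and Psat1 in 85.6%. Ddit3 was detected in 74.0% of cells although its median in the cells that had it, 290 TPM, was above those of Phgdh (195 TPM in 91.1%) and Psat1 (128 TPM in 85.6%). Shmt2, with a median of 81.4 TPM where detected, was found in a similar share, 75.1%. Chac1 was found in 39.4%, Trib3 in 36.3%, Sesn2 in 32.0%, and Slc7a11 in 20.3% of cells. Of all members, Ddit3 was thus the one with many empty cells and a high level in the rest, and its level also moved most with the number of genes detected in a cell (mean r over tumors 0.44, against 0.11 to 0.30 for the other 9).

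Single cells could carry a large part of a mean. The highest Trib3 values, 2293 and 2170 TPM, were both in B16008, where Trib3 was detected in 33.7% of cells and the mean was 74.1 TPM, or 48.0 TPM without the higher cell. The highest Slc7a11 value, 333 TPM, was in B16PD1002, where it raised the mean from 4.35 to 8.08 TPM. For this reason the comparisons use the mean over cells of log2(TPM + 1), which 1 cell moves less.

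**Figure D1:**
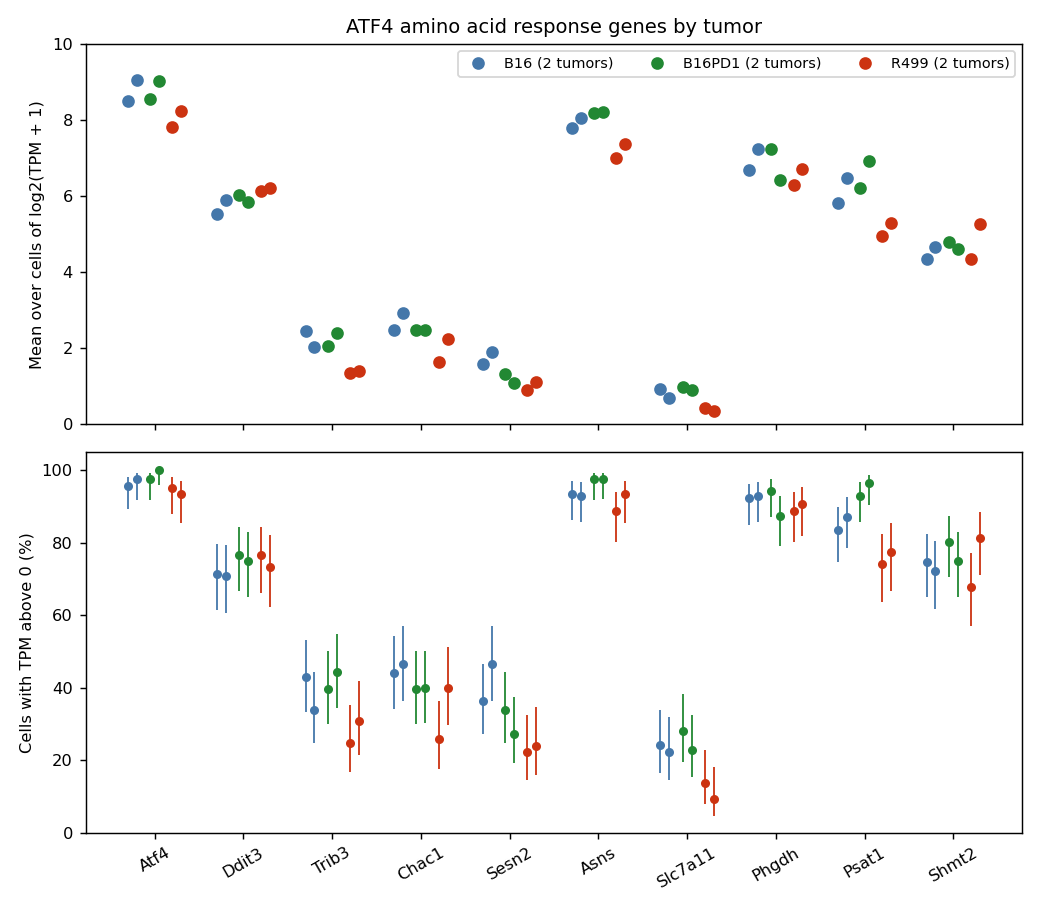
The 10 members in each tumor, as the mean over cells of log2(TPM + 1) above and as the percentage of cells with TPM above 0 below, with 1 point per tumor, colors for the conditions, and bars for the 95% Wilson interval of each share. By level, both R499 tumors lie below both B16 tumors for 7 members and above them for Ddit3, against 30.1% and 11.6% of all tested genes. Atf4 ranges from 7.81 to 9.05 while Slc7a11 ranges from 0.35 to 0.99.

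Between R499 and B16, 7 of the 10 members were lower in both R499 tumors than in both B16 tumors, Ddit3 was higher in both, and Phgdh and Shmt2 overlapped, but no member passed the test. The 7 were Atf4 itself and its targets Asns, Psat1, Trib3, Chac1, Sesn2, and Slc7a11. Over all tested genes, 30.1% were lower without overlap and 11.6% higher, so that a lower value in R499 was common in the table and is to be read against that background. At an adjusted p under 0.05 (limma with Benjamini-Hochberg adjustment over 11264 genes, two-sided), 7 genes passed (0.0621%), none of them a member, 6 higher and 1 lower.

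Atf4, the factor itself, had a mean log2(TPM + 1) of 8.50 in B16007 and 9.05 in B16008, and of 7.81 in R499015 and 8.25 in R499016. The B16PD1 tumors, at 8.57 and 9.02, lay in the range of B16. The difference, R499 minus B16, was -0.75 ± 0.30 (SE), a ratio of 0.60 on the scale of TPM + 1, at an adjusted p of 0.386.

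Ddit3, the stress-induced partner factor CHOP, went the other way, with 5.52 and 5.90 in B16007 and B16008 against 6.14 and 6.20 in R499015 and R499016. The B16PD1 tumors had 6.03 and 5.85, so that both R499 tumors were above all 4 others, which held for 4.47% of tested genes. Its R499 minus B16 value was 0.46 ± 0.32 (adjusted p = 0.635). It was 0.28 without B16007, and over all alternatives it ranged from 0.19 (log2 of the mean TPM plus 1) to 0.72. The share of cells with Ddit3 was 71.4% and 70.9% in B16 and 76.5% and 73.3% in R499, within the Wilson intervals of each other (60.6% to 79.7% over the B16 tumors and 62.4% to 84.4% over the R499 tumors).

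Among the inhibitory and stress targets, Trib3 had 2.45 and 2.02 in the B16 tumors, 2.05 and 2.41 with anti-PD1, and 1.34 and 1.41 in the R499 tumors, a difference of -0.86 ± 0.31 and a ratio of 0.55 (adjusted p = 0.369). Chac1 had 2.48 and 2.92 in B16 tumors, 2.48 and 2.47 with anti-PD1, and 1.64 and 2.24 in R499, a difference of -0.76 ± 0.33 (adjusted p = 0.427). Sesn2 had 1.59 and 1.90 in B16 tumors, 1.31 and 1.09 with anti-PD1, and 0.91 and 1.12 in R499, a difference of -0.73 ± 0.27 (adjusted p = 0.380). Trib3 was nearly level within R499 and Chac1 was spread within it. For both genes the R499 tumors were below all other tumors, which held for 17.8% of tested genes. Sesn2 was low in R499 and B16PD1 alike, with B16PD1002 below R499016.

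Asns, the asparagine synthetase, had 7.78 and 8.06 in B16 tumors, 8.18 and 8.21 with anti-PD1, and 6.995 and 7.36 in R499, a difference of -0.74 ± 0.29 (adjusted p = 0.380). On the mean of log2(TPM + 1), Psat1 had the largest difference of the members, with 5.83 and 6.48 in B16 tumors, 6.22 and 6.91 with anti-PD1, and 4.96 and 5.30 in R499, which gave -1.03 ± 0.36 and a ratio of 0.49 on the scale of TPM + 1 (adjusted p = 0.364). By the log2 of the mean TPM plus 1, Psat1 had -0.44, and the largest difference was that of Trib3 (-1.97). Mean TPM of Psat1 was 196 ± 70.8 in B16 and 142 ± 39.4 in R499 (SD, n = 2). The share of cells with Psat1 was 83.5% and 87.2% in B16 tumors, 93.0% and 96.6% with anti-PD1, and 74.1% and 77.3% in R499. The condition means of this share came in the same order as those of log2(TPM + 1), while single tumors did not. Slc7a11 had 0.93 and 0.70 in B16 tumors, 0.99 and 0.90 with anti-PD1, and 0.43 and 0.35 in R499, a difference of -0.42 ± 0.18 (adjusted p = 0.417). In numbers of cells, Slc7a11 was found in 41 of 177 B16 cells, 44 of 174 B16PD1 cells, and 18 of 156 R499 cells (11.5%). For all 3 genes both R499 tumors were below the other 4, which held for 17.8% of tested genes.

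Among the members, the other 2 enzymes of the serine route, Phgdh and Shmt2, overlapped between the lines. Phgdh had 6.69 and 7.25 in B16 tumors, 7.23 and 6.42 with anti-PD1, and 6.30 and 6.71 in R499, a difference of -0.46 ± 0.35 (adjusted p = 0.676). Shmt2 had 4.36 and 4.66 in B16 tumors, 4.80 and 4.62 with anti-PD1, and 4.35 and 5.26 in R499, a difference of 0.29 ± 0.36 (adjusted p = 0.810). Shmt2 was both lowest and highest in an R499 tumor, and its difference became -0.16 without R499016.

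As a group, the members had a median difference of -0.74 between R499 and B16, against -0.073 over all tested genes. At an unadjusted p under 0.05, 7 members were lower, the same 7 named above, and none higher, where 8.12% of tested genes were lower and 2.42% higher. With each cell centered on its own mean, Chac1 (limma unadjusted p = 0.0536) and Slc7a11 (0.0924) were no longer under 0.05. Among the 6168 genes detected in at least 20% of cells, as all members were, the median difference was -0.15. Of these genes, 9.58% were lower at an unadjusted p under 0.05 without centering, and 32.7% were lower without overlap. Both R499 tumors were below all 4 other tumors for 6 members (Atf4, Asns, Psat1, Trib3, Chac1, and Slc7a11), against 17.8% of tested genes.

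Several measures moved with this difference. Fewer cells were retained in R499, 80.2% and 75.0% against 86.0% to 90.1% in the other tumors, and 17 and 21 cells were left out of the R499 tumors only for their mitochondrial share, against 5 to 10 elsewhere. With no filter on cells the median of the members was -0.75. The mean log2(TPM + 1) over all tested genes was 1.82 and 1.88 in R499 and 1.91 to 2.003 in the other tumors. After each cell was centered on its own mean, which shifted the median of all genes to 0.030, the median of the members was -0.63, and with the number of genes detected as a covariate it was -0.72. The summed immune TPM was lower in R499 (7.30 to 9.78) than in B16 (13.2 to 224), and without the 70 retained cells that had any immune marker the median of the members was -0.66. Without B16008 it was -0.54 and without R499015 -0.50.

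**Figure D2:**
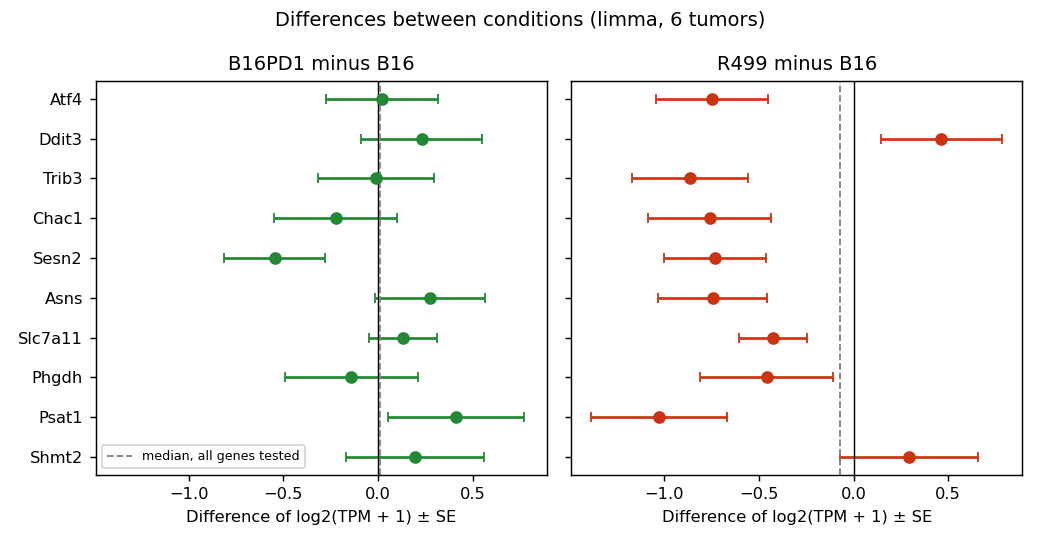
Difference of each member in log2(TPM + 1) between conditions, B16PD1 minus B16 on the left and R499 minus B16 on the right, with bars for the standard error of limma over 6 tumors and a dashed line for the median of all tested genes. In R499, 8 members are negative, down to -1.03 for Psat1, and Ddit3 (0.46) and Shmt2 (0.29) are positive, where 64.1% of all tested genes are negative. In B16PD1 the values scatter around 0, from -0.55 for Sesn2 to 0.41 for Psat1.

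With anti-PD1, no gene of the table passed at an adjusted p under 0.05 (0%), and at an unadjusted p under 0.05 there were 528 genes (4.69%) and no member. This comparison shares its B16 tumors with the preceding one. The median difference of the members, B16PD1 minus B16, was 0.075, against 0.012 over all genes. Sesn2, with both B16PD1 tumors below both B16 tumors, had -0.55 ± 0.27 (limma adjusted p = 0.989), and 15.4% of all genes were lower without overlap. Asns was higher without overlap, as were 17.9% of genes, with 0.27 ± 0.29 (adjusted p = 0.989). Psat1 had 0.41 ± 0.36, and its share of cells, higher in both treated tumors, differed by 9.44 ± 2.52 percentage points (adjusted p = 0.920 over the shares of all genes). Atf4 (0.02 ± 0.30) and Trib3 (-0.01 ± 0.31) had the smallest differences, and Ddit3 had 0.23 ± 0.32, Shmt2 0.19 ± 0.36, Slc7a11 0.13 ± 0.18, Phgdh -0.14 ± 0.35, and Chac1 -0.22 ± 0.33. With standard errors of this size and 2 tumors per condition, differences of these sizes could not be detected.

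The wider pathway was described with 56 genes in 5 lists, of which 52 were tested (Gldc, Slc7a3, Cebpb, and Stc2 were detected in too few cells). None passed at an adjusted p under 0.05 in either comparison. Between R499 and B16, 34 of the 52 were lower without overlap and 1 higher, against 30.1% and 11.6% of all tested genes. At an unadjusted p under 0.05 (limma), 24 were lower and none higher, against 8.12% and 2.42% of all tested genes, and the median difference was -0.46. Between B16PD1 and B16 the median was -0.023, with 9 lower and 8 higher without overlap. These counts were near the shares over all tested genes, 15.4% lower and 17.9% higher.

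The counts of each list are to be read against the 30.1% of all tested genes lower without overlap in R499 and the 11.6% higher. All 9 tested amino acid transporters were lower without overlap in R499 (median -0.59). The most abundant were Slc3a2, the shared heavy chain through which Slc7a11 reaches the membrane, at -0.76 ± 0.31, the glutamine carrier Slc38a2 at -0.88 ± 0.36, and Slc38a1 at -0.40 ± 0.33. Of 14 aminoacyl-tRNA synthetases and related genes, which charge or export tRNA, 10 were lower without overlap (median -0.53), and the most abundant were Sars (-0.24 ± 0.30), Gars (-1.25 ± 0.34), and Eprs (-0.97 ± 0.32). Of 9 genes of serine, glycine, and one-carbon metabolism, 5 were lower and 1 higher (median -0.69), with Psph, the enzyme after Psat1, at -1.06 ± 0.34, the mitochondrial folate enzyme Mthfd2 at -0.69 ± 0.37, and the thymidylate synthase Tyms at 0.57 ± 0.42. Of 7 genes for proline, aspartate, and cysteine synthesis, 4 were lower (median -0.61), with Aldh18a1 at -1.32 ± 0.40, Cth at -0.99 ± 0.36, and Got1 at -0.07 ± 0.30. Of the 13 partner factors and other targets, 6 were lower and none higher (median -0.18). Nupr1, a stress-induced chromatin protein, had -1.24 ± 0.39 and Herpud1, of ER-associated degradation, -1.04 ± 0.42, while Eif4ebp1, which restrains translation initiation, had 0.01 ± 0.30.

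Lists other than the pathway lists gave a frame for these counts, beside the 30.1% of all tested genes lower and 11.6% higher without overlap. The eIF2 list among them holds genes that act upstream of ATF4. Of 15 ER chaperones and their regulators 13 were lower without overlap (median -0.66), among them Hspa5 (-0.72 ± 0.30), Canx (-0.32 ± 0.29), and Calr (-0.75 ± 0.27), so that a lower level in R499 was not limited to amino acid genes. Of 10 eIF2 kinases, subunits, and phosphatase genes 6 were lower (median -0.31), with Eif2s1 at -0.15 ± 0.34, Eif2s2 at -0.52 ± 0.30, and Eif2b5 at -0.64 ± 0.28. Of 10 targets of NRF2, the factor of the oxidative stress response, 4 were lower and 1 higher (median -0.033), with Prdx1 at 0.09 ± 0.22, Hmox1 at -1.18 ± 0.34, and Slc48a1 at -1.08 ± 0.37. Of 9 p53 targets 1 was lower and 2 higher (median 0.030), with Bax at -0.31 ± 0.38, Cdkn1a at 0.68 ± 0.44, and Mdm2 at 0.04 ± 0.36. None of these genes passed at an adjusted p under 0.05.

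**Figure D3:**
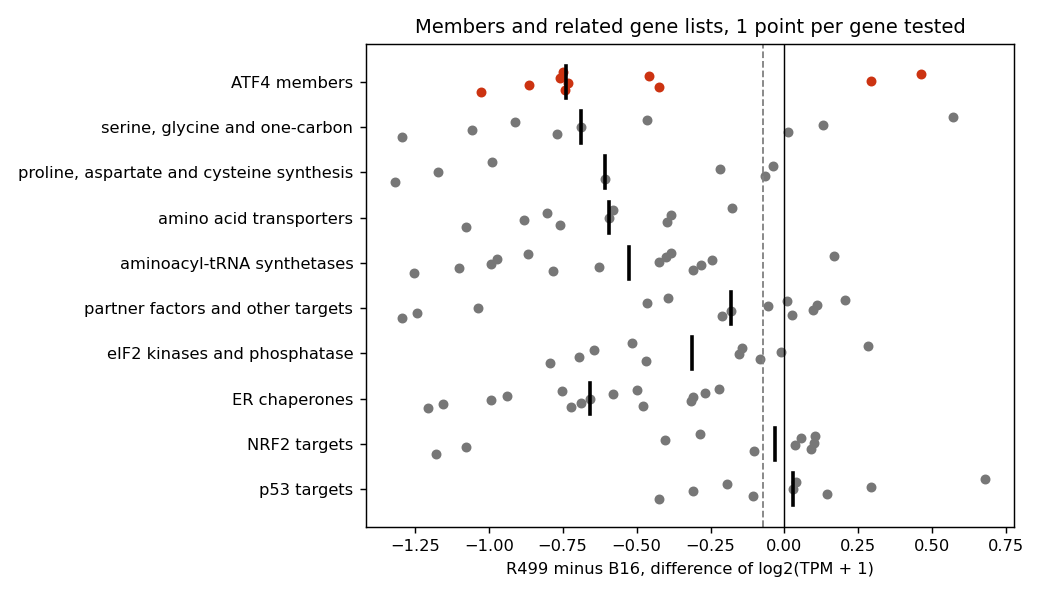
R499 minus B16 difference in log2(TPM + 1) for the members (red) and the tested genes of 9 lists (gray), 1 point per gene, with a black bar for the median of each row and a dashed line for the median of all tested genes. The lowest medians are those of the members (-0.74), the serine, glycine, and one-carbon genes (-0.69), and the ER chaperones (-0.66). Proline, aspartate, and cysteine synthesis (-0.61) and the amino acid transporters (-0.59) come next. The NRF2 (-0.033) and p53 targets (0.030) lie around 0. Genes found in few cells can differ little on this scale, such as Gclc (3.94% of cells) and Bbc3 (1.97%) in these 2 lists and Gdf15 (2.17%) among the other targets.

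The motif search was extended to the lists. Windows were found for 42 of the 56 pathway genes, and 14 (33.3%) held TGATGNAA, against 1219 of all 27025 symbols (4.51%). They were 5 synthetases (Aars, Gars, Iars, Tars, and Yars), 6 partner factors and targets (Atf3, Jdp2, Nupr1, Vldlr, Fgf21, and Herpud1), Pycr1, Got1, and Slc1a4. No window of the ER chaperones (0 of 13), the eIF2 list (0 of 8), the NRF2 targets (0 of 6), or the p53 targets (0 of 8) held it, nor did any of the 8 windows of the serine, glycine, and one-carbon list. As the pathway lists were drawn up from known ATF4 targets, this count is a description.

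Cells differed in how many members they expressed. The mean number of members detected per cell was 6.58 and 6.63 in B16 tumors, 6.80 and 6.66 with anti-PD1, and 5.78 and 6.13 in R499. All 10 were detected in 29 cells, of which 3 were from R499, and 1 member only in 3 cells. The 2 R499 tumors were the lowest, with 16.05% and 24.0% of cells at 8 or more members, against 34.1% to 37.2% in the other tumors. Because more genes are seen in deeper cells, the 507 cells were also split into 3 bins of equal size by genes detected. R499 was lower than B16 in each bin, at 4.66 ± 0.25 against 4.73 ± 0.11 (SD, n = 2) in the lowest, 6.40 ± 0.24 against 6.94 ± 0.25 in the middle, and 7.45 ± 0.0032 against 8.04 ± 0.17 in the highest, with the difference in the lowest bin within the spread of the tumors. These differences were not tested.

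Within a tumor, the members varied together, weakly for most pairs. Correlations were computed over the cells of each tumor after regression on the number of genes detected and averaged over 6 tumors, and they are given as a description because the cells of a tumor share their library preparation. The median over the 45 pairs was 0.11, with 42 pairs above 0 and 16 positive in all 6 tumors. For pairs of a member with any of 8129 other genes found in at least 10% of cells the median was 0.0030, and 2.62% were positive in all 6 tumors. An r of at least 0.2 was reached by 9 of the 45 pairs and by 0.0849% of the pairs with other genes.

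The strongest pairs joined an enzyme or importer to another target. Asns and Phgdh had r = 0.25, Trib3 and Slc7a11 0.24, Psat1 and Phgdh 0.23, Asns and Trib3 0.23, Asns and Slc7a11 0.23, and Chac1 and Trib3 0.23. Ddit3 went with Chac1 (0.22) and Atf4 (0.20), and not with Psat1 (-0.025) or Shmt2 (-0.037). The enzymes of the serine route formed a second set of pairs around Phgdh, which had 0.22 with Shmt2, while Slc7a11 and Shmt2 had -0.035. Asns with Phgdh (-0.088 to 0.43 over the tumors), Phgdh with Shmt2 (-0.039 to 0.54), and Atf4 with Ddit3 (-0.049 to 0.33) were positive in 5 of 6 tumors. The other pairs named with r of at least 0.2 were positive in all 6. Against the mean of the other 9 members, Trib3 had the highest r (0.34), followed by Chac1 (0.32), Asns (0.32), Phgdh (0.31), Slc7a11 (0.31), Atf4 (0.27), and Ddit3 (0.22), and the lowest were Psat1 (0.16), Sesn2 (0.14), and Shmt2 (0.12). All 10 of these values were positive in 6 of 6 tumors. The median over pairs was 0.079 and 0.084 in the R499 tumors and 0.094 to 0.17 in the others.

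**Figure D4:**
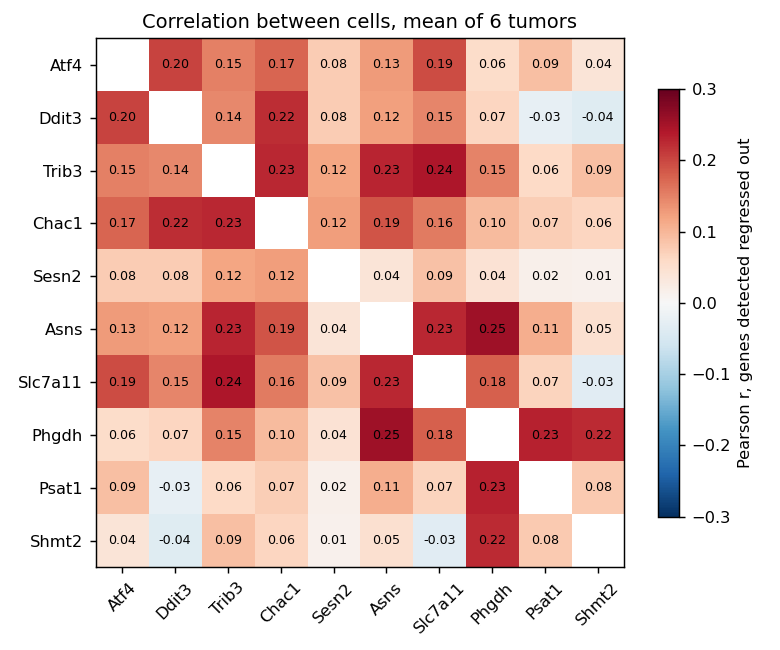
Correlation between members over the cells of a tumor, as Pearson r after regression on the number of genes detected, averaged over the 6 tumors (color and number in each square). Trib3, Chac1, Asns, and Slc7a11 share values from 0.16 to 0.24, Phgdh joins Asns (0.25), Psat1 (0.23), and Shmt2 (0.22), and the row of Sesn2 stays at or below 0.12.

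The rarer members tended to be found in the same cells. Trib3 was detected in 54.0% of the 200 cells with Chac1 and in 24.8% of the 307 cells without it, with the same direction in 6 of 6 tumors. Cells with Chac1 also had more genes detected (a median of 4169 against 3111), so the comparison was repeated in the bin of cells with the most genes. There the shares were 65.6% and 42.1%, in the same direction in 5 of 6 tumors. Trib3 was detected in 64.1% of the 103 cells with Slc7a11 and 29.2% of the others. In the bin with the most genes these shares were 76.0% and 46.2%, in the same direction in 5 of 6 tumors, at nearly equal medians of genes detected (4962.5 and 4946). In that bin, Sesn2 was found in 74.0% of cells with Slc7a11 and 41.2% of those without it, in the same direction in 5 of 6 tumors. With and without Chac1, Sesn2 was found there in 61.3% and 38.2% of cells, in the same direction in only 4 of 6 tumors. These shares pool the cells of all 6 tumors, which differed in their detection of these genes.

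Outside the 10, the genes whose level followed the set most closely from cell to cell were Herpud1 (mean r = 0.35 over 6 tumors), Aldh1l2, a mitochondrial folate enzyme (0.34), Nupr1 (0.34), Gars (0.34), and Nars (0.33), each positive in all 6 tumors. All 5 were in the pathway lists. The most alike single genes were Grina for Atf4 (0.26), Nupr1 for Ddit3 (0.28), Gars for Asns (0.30), Hmox1 for Chac1 (0.22), Aldh1l2 for both Trib3 (0.27) and Slc7a11 (0.32), Psph for Phgdh (0.26), Cdc123 for Psat1 (0.19), Stmn1 for Shmt2 (0.19), and Sh2b1 for Sesn2 (0.20). The lowest r in a tumor for these ranged from 0.010 (Psph) to 0.18 (Hmox1), and was 0.052 for Cdc123, 0.017 for Stmn1, and 0.016 for Sh2b1. These genes and the 5 above were picked as the highest of 8129 genes, a choice that by itself raises r, and none was tested. By list, the mean of the standardized genes correlated with that of the members at 0.55 for the synthetases, 0.45 for the partner factors and other targets, 0.41 for proline, aspartate, and cysteine synthesis, 0.40 for the transporters, and 0.31 for serine, glycine, and one-carbon genes. It was 0.27 for the ER chaperones and 0.15 for the eIF2 list, and 0.051, -0.027, and -0.040 for the NRF2 targets, p53 targets, and melanocyte markers, whose sign varied between tumors.

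The 2 members with higher means in R499, Ddit3 (chr10:127290774-127296288, plus strand) and Shmt2 (chr10:127517123-127522444, minus strand, both GRCm38 in GENCODE M21), have start sites 231.67 kb apart. Among the other 63 tested genes within 2 Mb of either, the median R499 minus B16 difference was 0.11, with 46 (73.0%) above 0 and 18 (28.6%) higher without overlap, none passing the test. On the rest of chromosome 10 the median was -0.038, with 41.8% of 493 genes above 0, and over all genes 35.8% were above 0. The nearest tested genes were Mbd6 (0.09 ± 0.08) and Mars (0.17 ± 0.30) beside Ddit3, and Ndufa4l2 (0.16 ± 0.12) and Lrp1 (-0.06 ± 0.07) beside Shmt2. Around each of the 7 members that were lower in R499, the median of the tested genes within 2 Mb lay between -0.13 and 0.078, against differences of -0.42 to -1.03 for the members themselves. DNA copy number was not measured here.

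**Figure D5:**
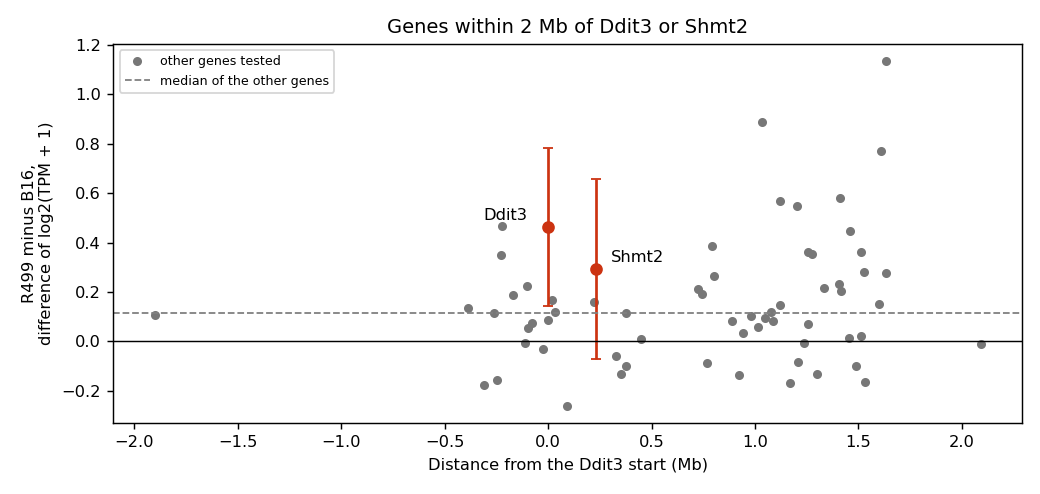
R499 minus B16 difference in log2(TPM + 1) of the tested genes within 2 Mb of Ddit3 or Shmt2 on chromosome 10, by distance of their start site from that of Ddit3, with the 2 members in red (bars, standard error) and the median of the other genes dashed (0.11). Most points, 46 of 63, are above 0, and Ddit3 (0.46) lies above most of them.

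Some values may include reads of other annotated features. In GENCODE M21 the 3′ end of Ddit3 overlaps that of Mars, on the opposite strand, the 3′ end of Shmt2 overlaps that of Ndufa4l2, a second gene ID with the symbol Ddit3 overlaps the first, and Phgdh has a processed copy, Phgdh-ps1. How the quantification divided reads between them is not given in the sources used here.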

How the data were processed

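Single cells of 6 tumors (2 each of B16, B16PD1, and R499) were sequenced on a full-length protocol. Per the methods and the submitters' processing notes, the authors aligned reads with STAR in 2-pass mode to mm10, quantified with RSEM at default parameters, and deposited TPM per gene and cell; versions and annotation are not given in the sources used here. Columns carry the condition and a tumor number, which placed each in its group.

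Cells were kept when over 1000 genes were detected (TPM above 0) and mitochondrial genes held under 10% of TPM, and genes when detected in more than 5 of those cells. The paper's limit on mapped reads could not be applied to TPM, and doublets were not called. Tumor means of log2(TPM + 1), with a pseudocount of 1, were fitted with limma 3.58.1 (R 4.3.3, trended eBayes) over all 6 tumors and 11264 genes, with 2 two-sided contrasts and Benjamini-Hochberg adjustment at 0.05. Fold changes on this scale understate those of low genes. No source says that mice were treated or harvested in separate batches, and p-values measure the spread between these tumors. Wilson intervals (95%) cover counting error only. Scripts were tested on simulated data.

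Named genes were the 10 members, in each list the genes past the threshold (there were none) and the 3 with the highest mean TPM, the 5 genes most correlated with the set, the 1 most like each member, and the tested neighbors of Ddit3 and Shmt2. Pathway genes that hold the motif were named in addition, after the windows had been read. The members, lists, and tests were chosen with earlier results of these data known. Positions came from GENCODE M21, which held 25103 of the 25215 gene IDs, and promoter windows from RefSeq (GRCm38.p6). Alternatives covered the pseudocount, filters, averaging, centering, covariates, and each tumor left out; 2 were added after seeing the data, the share of cells in place of the level and the removal of cells with an immune marker.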

Additional observations from a re-analysis of the deposited data

Results flagged for a closer look

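Ddit3 stood out in cells that the comparisons did not use. The filter left out 71 cells only for a mitochondrial share of 10% or more, 5 to 10 in each B16 or B16PD1 tumor and 17 and 21 in the R499 tumors. Their mean log2(TPM + 1) of Ddit3 over the 6 tumors was 7.32 ± 0.56 (SD). The lowest tumor, at 6.52, was above the highest B16 tumor among retained cells, at 5.90. Within each tumor the left-out cells were higher than the retained ones by 0.38 to 2.13, in 6 of 6 tumors. Ddit3 was detected in 93.0% of these cells (Wilson interval 84.6% to 97.0%), against 74.0% of retained cells, at medians of 3957 and 3547 genes detected. Mean TPM was close in the 2 kinds of cells, 274 and 285. Atf4 was lower in the left-out cells in 6 of 6 tumors (by 0.11 to 1.01), and none of the other members was higher in all 6. The fall was not limited to Atf4: Asns, Trib3, and Phgdh were higher in the left-out cells in only 1 tumor each. The mean difference was -0.68 for Atf4 and from -0.48 (Shmt2) to 0.15 (Psat1) for the members other than Atf4 and Ddit3. Mean TPM was lower in the left-out cells for every member, such as Atf4 (280 against 596) and Asns (278 against 480).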

How the results depend on the processing

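No member passed at an adjusted p under 0.05 in either comparison under any alternative run. The adjusted p of the R499 differences ranged from 0.212 to 0.844 for Trib3 and from 0.278 to 0.774 for Psat1. Of the 10 R499 differences, 9 kept their sign under all 18 alternatives, and Shmt2 became -0.017 with no filter on cells and -0.16 without R499016 (-0.16 to 0.75 with 1 tumor left out). Their median of -0.74 was -0.37 with a pseudocount of 10 and -0.49 for the log2 of the mean TPM plus 1, and -0.87 to -0.50 with 1 tumor left out.

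The 7 genes passing in R499 (6 higher, 1 lower) became 11 with a pseudocount of 0.1, 3 with 10, 13 for genes in more than 10 cells, 22 with no filter on cells, 20 for cells with more than 2000 genes, and 28 with cells centered (20 higher, 8 lower). They became 0 for the log2 of the mean TPM, with no filter on genes, by share of cells, with genes detected as a covariate, and for limma without a trend. With 1 tumor left out they ranged from 0 to 10 (0 without B16008, 4 without R499015), where the remaining tumor is assumed to vary like the others. In B16PD1 the count was 0 to 2 (2 without B16007).

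Signs in B16PD1 were unstable. Atf4 became -0.047 (pseudocount 10), -0.17 (log2 of the mean), -0.022 (mitochondrial share under 5%), -0.013 (centered), -0.031 (no cells with an immune marker), -0.26 without B16007, and -0.21 without B16PD1002 (-0.26 to 0.30 with 1 tumor left out). Trib3 became 0.096 (pseudocount 0.1), 0.055 (no filter on cells), 0.12 (more than 2000 genes), 0.20 without B16007, and 0.17 without B16PD1000 (-0.23 to 0.20). Phgdh became 0.14 without B16008 and 0.26 without B16PD1002 (-0.54 to 0.26). Ddit3 became -0.11 for more than 2000 genes, and under the log2 of the mean Ddit3 was -0.066, Asns -0.025, Chac1 0.13, and Psat1 -0.10, with a median over the members of -0.083. Except where the alternative itself uses fewer cells, genes, or tumors, the cause was not tested.

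The mean number of members per cell, 6.43 over the tumors, was 6.12 counting TPM of at least 10, 6.26 with no filter on cells and also with a mitochondrial share under 5%, and 6.77 in cells with more than 2000 genes. The median correlation was 0.18 without regression on genes detected. No paired analysis was possible because the columns carry tumor numbers that no label ties to a replicate number. With 2 tumors per condition and no read depth, small differences and absence of a transcript cannot be judged.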
